A study of Mus musculus with 22 samples.

Results

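Dlk1, Meg3 and Rtl1 form the proximal part of an imprinted cluster on mouse chromosome 12, and their DNA copy number was followed here in thymocytes of 22 mice deficient in Atm, which encodes a protein kinase of the response to broken DNA. They are 3 of 25745 gene names on the array, and their members are the 7 probes that carry 1 of the 3 names, out of 235402 probes of the series. Dlk1 has 2 probes, Meg3 has 3 (under its older name Gtl2) and Rtl1 has 2. They lie within 138 kb, between positions 106975593 and 107114024 of chromosome 12 in the coordinates of the array files. The sources used here do not give the genome build of these coordinates, so exon and intron positions are not stated. The other 114 probes of a 1.07 Mb window, from 106725167 to 107799381, serve as their neighbourhood. The cluster was chosen by its measured log2 ratios, which were low in lymphoma, so the group values of its copy number below are a description and carry no test.

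Each mouse contributed 1 two-colour array, on which Cy5-labelled DNA of its Atm-deficient thymocytes competed with Cy3-labelled DNA of wildtype thymocytes. Per the labels, 8 of the mice had a thymic lymphoma and 14 were macroscopically free of findings, and no mouse was treated. Both groups carry the Atm deficiency, and the comparison between them therefore asks what differs with the tumour, not what the deficiency does. The labels name no Atm allele, strain, age or sex, and they do not say how many animals gave the wildtype DNA. Each value is the log2 of the signal from Atm-deficient DNA divided by that from wildtype DNA, with each array centred on its autosomal median. Loss of 1 of 2 copies in every cell would read -1 on an ideal array. In bulk DNA, fewer cells with a loss and a smaller loss per cell cannot be told apart, and the arrays do not separate the maternal from the paternal chromosome.

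In this cluster the 2 parental chromosomes are used differently. Dlk1, which encodes a transmembrane protein related to the Notch ligands, and Rtl1, a gene derived from a retrotransposon and needed for placental development, are expressed from the paternal copy. Meg3 (Gtl2), Rian, Mirg and a large set of microRNAs and small nucleolar RNAs are noncoding RNAs made from the maternal copy. Several of the microRNAs are encoded opposite Rtl1 and can direct cleavage of its mRNA. Dio3, which encodes a deiodinase that inactivates thyroid hormone, closes the cluster on the distal side. The loss of a chromosome segment can thus remove either the protein-coding or the noncoding products, depending on which parental copy is hit.

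The probe sequences are shown because every member value rests on 7 short stretches of DNA. Each of those printed lacks AGCT and GTAC, the recognition sites of AluI and RsaI, with which the DNA was cut according to the labels' protocols. Over all 238202 spots only 0.0214% of probe sequences hold AGCT and 0.0134% hold GTAC.
Dlk1, chr12:106975593-106975652: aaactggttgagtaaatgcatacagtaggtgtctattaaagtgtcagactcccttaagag
Meg3, chr12:107072631-107072690: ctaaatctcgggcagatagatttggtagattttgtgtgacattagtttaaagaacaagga
Meg3, chr12:107076049-107076108: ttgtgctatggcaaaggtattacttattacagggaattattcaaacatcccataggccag
Meg3, chr12:107080005-107080062: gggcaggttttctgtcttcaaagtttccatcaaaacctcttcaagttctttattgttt
Rtl1, chr12:107113971-107114024: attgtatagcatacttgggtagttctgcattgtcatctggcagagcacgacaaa

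A pair of probes of the window measured microRNA genes directly. The other Rtl1 probe, at chr12:107111766-107111817, shares all 52 of its bases with the Mir433 hairpin in RefSeq (GRCm38.p6), and a probe at chr12:107263760-107263819, named for the noncoding RNA Mirg (AJ517767), shares 56 of its 60 bases with the Mir410 hairpin. Capitals mark the shared bases.
Rtl1 probe over Mir433: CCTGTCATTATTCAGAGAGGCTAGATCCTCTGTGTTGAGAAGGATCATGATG
Mirg probe over Mir410: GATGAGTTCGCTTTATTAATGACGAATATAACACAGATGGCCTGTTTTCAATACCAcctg

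RefSeq places 58 microRNA hairpins between Dlk1 and Dio3, 15 of them within the span of Rtl1, with 114 mature products. The products below are those of the measured hairpins, of some neighbours within Rtl1 and of Mir494, which shares a seed with Mir410, with the seed (bases 2 to 8), by which a microRNA recognises its targets, in capitals. The 5-prime product of Mir410 shares its seed with that of Mir494, and 9 seeds of the cluster are used by more than 1 of its mature sequences.
miR-433-3p: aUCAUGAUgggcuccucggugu
miR-433-5p: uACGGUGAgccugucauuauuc
miR-127-3p: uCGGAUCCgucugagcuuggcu
miR-136-5p: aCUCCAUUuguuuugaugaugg
miR-431-5p: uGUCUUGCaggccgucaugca
miR-410-3p: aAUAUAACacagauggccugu
miR-410-5p: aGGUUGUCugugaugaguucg
miR-494-5p: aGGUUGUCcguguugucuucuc
These letters are shown to identify the genes, and no RNA was measured.

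The arrays were not equally sound, which touches the values that follow. Noise between neighbouring probes was 0.15 to 0.37 for lymphoma and 0.13 to 0.55 for the arrays without lymphoma, and the arrays came in 6 scan batches read from the file headers. The Atm probe used as a check (chromosome 9, 53461029 to 53461088) was that with the highest lymphoma mean of the probes named Atm. It read 0.95 to 1.32 in the lymphoma arrays, high in part through that choice, and -1.08 to 1.69 in the others. Whether it lies in the altered part of Atm is not stated. The probe was low but positive in no-lymphoma mouse 5 (0.44) and no-lymphoma mouse 6 (0.08), the arrays without lymphoma of scan batch 3. With scan batch 2 they make up the 5 arrays of a low Atm probe, and the rest read 0.67 or more. The probe was negative in the 3 arrays of scan batch 2, against all other arrays. These are written below as labelled no-lymphoma mouse 1, labelled no-lymphoma mouse 3 and labelled no-lymphoma mouse 4. The latter pair and no-lymphoma mouse 9 were the noisiest and correlated at 0.82 to 0.87 with each other. In 8 of 231 pairs of arrays r lay under -0.3 over autosomal probes, down to -0.48, and each of these pairs held 1 of those 3 arrays. The direction of the ratios was kept, because the labels state the dyes. Without those 3 arrays the cluster difference described next was -0.71 in place of -0.68, and without scan batch 2 it was -0.66. No member spot was dim, and 1 of the 154 member spot values, at the middle Meg3 probe of no-lymphoma mouse 14, carried an outlier flag and was left out.

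Averaged over the 7 probes, the cluster lay below the wildtype level in the lymphoma arrays. The log2 ratio was -0.62 ± 0.27 (SD, n = 8), with a lowest value of -0.88, a median of -0.70 and a highest value of -0.04. The arrays without lymphoma averaged 0.06 ± 0.35 (SD, n = 14), from -0.52 through a median of 0.09 to 0.80. The difference, lymphoma minus no lymphoma, was -0.68. Lymphoma mouse 1, at -0.04, was the exception in its group, and the other lymphoma arrays lay between -0.88 and -0.47. In the other group, no-lymphoma mouse 11 at -0.49 and no-lymphoma mouse 14 at -0.52 fell inside the range of the 7 lymphomas other than lymphoma mouse 1.

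Dlk1 varied most between mice. In lymphoma it read -0.64 ± 0.46 (SD, n = 8), with a lowest value of -1.28, a median of -0.67 and a highest of 0.08. Without lymphoma it read 0.15 ± 0.58 (SD, n = 14), from -1.13 through 0.20 to 0.99, and the difference was -0.79. The groups overlapped. The values of no-lymphoma mouse 14 (-1.13) and no-lymphoma mouse 7 (-0.85) lay among the lowest of the whole series, while 11 of the 14 arrays without lymphoma lay above every lymphoma array.

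Meg3, the noncoding RNA gene downstream, was low in the same lymphomas with less scatter. Its ratio was -0.68 ± 0.25 (SD, n = 8) in lymphoma, from -0.89 through a median of -0.75 to -0.09. Without lymphoma it was 0.03 ± 0.34 (SD, n = 14), from -0.73 through 0.03 to 0.75, and the difference was -0.71. Leaving aside lymphoma mouse 1, a single array without lymphoma, that of no-lymphoma mouse 11, reached the lymphoma range.

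Rtl1 was also low in the lymphomas. It read -0.51 ± 0.20 (SD, n = 8) in lymphoma, with a lowest value of -0.70, a median of -0.56 and a highest of -0.06. The arrays without lymphoma gave 0.02 ± 0.34 (SD, n = 14), from -0.54 through 0.11 to 0.67, and the difference was -0.53. Which of the 3 genes differed least depended on the processing, being Rtl1 here, Dlk1 (-0.55) with the sign of scan batch 2 turned and Meg3 (-0.32) with normexp background correction. The lowest Rtl1 value without lymphoma, -0.54, came from the array labelled no-lymphoma mouse 3, whose Atm probe was negative and whose noise was 0.55.

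**Figure D1:**
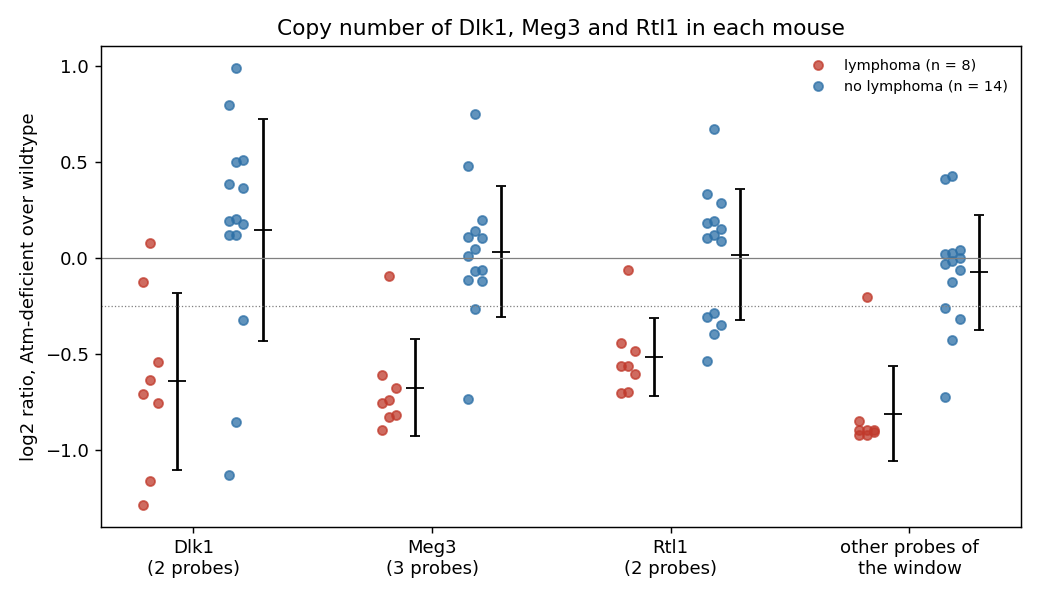
Log2 ratio of Atm-deficient over wildtype DNA for Dlk1, Meg3, Rtl1 and the other 114 probes of the window (rightmost column). Each point is 1 mouse, red for lymphoma (n = 8) and blue for no lymphoma (n = 14), black bars give mean ± SD and the dotted line marks -0.25. The lymphoma means are -0.64, -0.68, -0.51 and -0.81, and lymphoma mouse 1 is the highest red point in each column.

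The single member probes differed in how well they parted the groups. The Mir433-matching Rtl1 probe, at 107111766, had a lowest lymphoma value of -0.74, a median of -0.55 and a highest of -0.02, against -0.42, 0.12 and 0.80 without lymphoma. The other Rtl1 probe, at 107113971, averaged -0.52 ± 0.22 (SD, n = 8) against -0.06 ± 0.40 (SD, n = 14), and none of the lymphoma arrays lay below all others. The first Meg3 probe averaged -0.74 ± 0.30 (SD, n = 8) against 0.13 ± 0.39 (SD, n = 14), and 12 of the 14 arrays without lymphoma lay above every lymphoma array. The middle Meg3 probe averaged -0.75 ± 0.36 (SD, n = 8) against 0.05 ± 0.38 (SD, n = 13). The last Meg3 probe, at 107080005, averaged -0.54 ± 0.27 (SD, n = 8) against -0.06 ± 0.54 (SD, n = 14). Without lymphoma its lowest values, -1.04, -0.76 and -0.64, were those of the 3 noisiest arrays, in which the first Meg3 probe read 0.30 to 0.62. In lymphoma its lowest value was -0.89, in lymphoma mouse 8. The first Dlk1 probe averaged -0.64 ± 0.77 (SD, n = 8) against 0.24 ± 0.42 (SD, n = 14), and the second -0.64 ± 0.31 (SD, n = 8) against 0.06 ± 0.80 (SD, n = 14). The scatter of Dlk1 thus came from the first probe in lymphoma and from the second without it.

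The rest of the window moved with the members. The other 114 probes averaged -0.81 ± 0.25 (SD, n = 8) in lymphoma and -0.07 ± 0.30 (SD, n = 14) without, a difference of -0.74. A lymphoma mean of -0.5 or less was found at 7 of 7 member probes and at 117 of 121 probes of the window. Over all autosomal probes that share was 1.08%, which is given as the background only, since the same contrast chose the cluster. The median lymphoma mean was -0.64 over the member probes, -0.83 over the window and 0.00 over autosomal probes.

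Among the noncoding genes, Meg8 (AF498301, also known as Rian, host of small nucleolar RNAs, 8 probes) averaged -0.88 in lymphoma against -0.02 without. Mirg (AJ517767, a microRNA host, 6 probes) averaged -0.78 against -0.01. The related Irm transcript (AF498294, 1 probe) averaged -1.01 against -0.21. At the single probes inside microRNA hairpins, the Mir433 probe read -0.51 ± 0.21 (SD, n = 8) against 0.10 ± 0.33 (SD, n = 14), and the Mir410 probe -0.67 ± 0.24 against 0.06 ± 0.28. At the Mir433 probe 7 of the 8 lymphoma arrays lay below every array without lymphoma. Dio3, measured by a single probe, had -0.38 ± 0.38 (SD, n = 8) in lymphoma and -0.09 ± 0.35 (SD, n = 14) without. There 2 lymphoma arrays lay below every array without lymphoma. The probe read -0.03 in lymphoma mouse 3 and -0.21 in lymphoma mouse 8, although the called losses of both extended past it. In lymphoma mice 2, 4, 5 and 6, whose called losses also took it in, it read -0.88 to -0.56. The remaining named transcripts of the window were Y13832 (3 probes), AK053394 (2 probes) and AK145456, AK003491, AK142849, AK141557 and AK048151 (1 probe each). They were matched to no gene symbol here and kept their array names, and their lymphoma means lay between -1.06 and -0.80. The Y13832 probes, next after those of Meg3, averaged -0.82 in lymphoma against -0.07 without. U59418, a fragment of a protein phosphatase 2A subunit mRNA whose probes extend beyond the window, averaged -0.70 ± 0.30 (SD, n = 8) against -0.09 ± 0.27 (SD, n = 14).

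**Figure D2:**
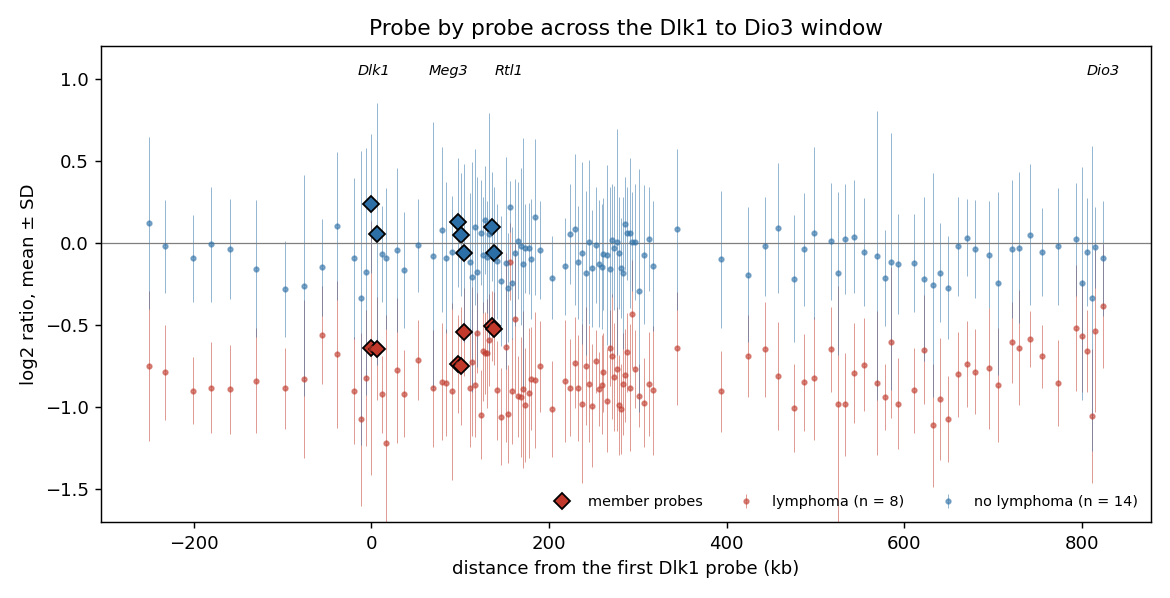
Mean ± SD of the log2 ratio at each of the 121 probes of the window, against the distance in kb from the first Dlk1 probe, for lymphoma (red, n = 8) and no lymphoma (blue, n = 14). Diamonds mark the 7 member probes. The red means lie below 0 at 121 of 121 probes, with the member probes in the upper part of their range.

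Because these probes share an array, differences between them within an array leave out what is common to the whole region, and these 4 differences were tested between the groups with an exact two-sided permutation test over all 319770 splits of the arrays. None passed after Benjamini-Hochberg adjustment over the 4. The ratios of the member probes on this contrast also chose the cluster, so these p-values are descriptive and give no independent support. Meg3 minus Rtl1 was -0.16 ± 0.15 (SD, n = 8) in lymphoma, negative in 7 of 8 arrays, and 0.02 ± 0.22 (SD, n = 14) without, negative in 8 of 14. The difference of -0.18 had an exact p = 0.0553 and an adjusted p = 0.221. Without no-lymphoma mouse 11 the difference was -0.21, with an adjusted exact p = 0.047, and leaving out other arrays one at a time gave adjusted p-values up to 0.449. It was -0.09 with the scan batch as a block (exact p = 0.42). Within batches it was -0.24 in batch 1, -0.20 in batch 3, 0.15 in batch 5 and -0.05 in batch 6.

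Rtl1 minus Dlk1 was 0.13 ± 0.36 (SD, n = 8) in lymphoma and -0.13 ± 0.55 (SD, n = 14) without, with an exact p = 0.255 and an adjusted p = 0.388. Within batches the difference ranged from -1.08 in batch 5 to 0.66 in batch 6. Meg3 minus Dlk1 was -0.03 ± 0.33 (SD, n = 8) against -0.11 ± 0.47 (SD, n = 14), with an exact p = 0.683 and an adjusted p = 0.683, and its difference of 0.08 fell to -0.01 without lymphoma mouse 6. The spread between mice in both exceeded the group difference.

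The members read higher than their neighbourhood in most mice. Member mean minus the mean of the other window probes was 0.19 ± 0.13 (SD, n = 8) in lymphoma, above 0 in 8 of 8 arrays, and 0.13 ± 0.12 (SD, n = 14) without, above 0 in 12 of 14. The group difference of 0.06 was within the spread (exact p = 0.291, adjusted p = 0.388). The offset of the members from their neighbours thus appeared in both groups.

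Segmentation of each array placed the members in a called loss (segment mean of -0.25 or less) in 7 of 8 lymphomas. The segment means over the members in those 7 ran from -0.93 in lymphoma mouse 4 to -0.77 in lymphoma mouse 8, ratios of 0.523 to 0.588 of the wildtype level. All 7 member probes were in a loss in at least 7 lymphomas, as were 0.484% of autosomal probes, and nothing is read from this count because the rule used it. In lymphoma mouse 1 a segment of 2.99 Mb with 353 probes (chr12:105364339-108354682) was set off over the cluster. It averaged -0.18 and was not called.

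Among mice without lymphoma, the cluster was called lost in 2 of 14, no-lymphoma mouse 11 (segment mean -0.69) and no-lymphoma mouse 14 (-0.36). At least 2 losses in this group occurred at 4.24% of autosomal probes. A call for the cluster refers to the segment that holds most of its 7 probes. Just outside the threshold were no-lymphoma mouse 9 at -0.23 and no-lymphoma mouse 7 at -0.22 over its 5 Meg3 and Rtl1 probes. In no-lymphoma mouse 7 the 2 Dlk1 probes lay in a called loss (-0.87), at the distal end of a run of lost segments of 19.1 Mb with a mean of -0.26. A threshold of -0.4 left 1 of these calls. The segments over the cluster were called gained in the array labelled no-lymphoma mouse 1 (0.39) and in no-lymphoma mouse 2 (0.59), and at least 2 gains occurred at 4.39% of autosomal probes. With the sign of scan batch 2 turned, the first of these would be a loss at -0.39, and the group would hold 3 losses and 1 gain. In no-lymphoma mouse 2 the gained segment was short, 0.574 Mb with 86 probes (chr12:106956253-107530014). It began next to Dlk1 and took in all 7 members, while the segments on either side averaged 0.14 and 0.17.

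The losses were much larger than the cluster. In lymphoma they spanned 3.59 to 19.9 Mb. The shortest, in lymphoma mouse 7 (chr12:104197561-107786690, 331 probes, mean -0.79), lay inside all 6 others and so was the stretch common to the 7. It was flanked by segments of 0.42 and 0.64. Its distal end lay among probes named U59418, and the Dio3 probe, 12.6 kb beyond it, read 0.13 in this mouse. Lymphoma mouse 2 and lymphoma mouse 6 lost everything from 98521898 and 97923576 to the last probe of the chromosome at 117798928. In lymphoma mouse 3, lymphoma mouse 4 and lymphoma mouse 5 the loss ended between 112546297 and 112799237. In lymphoma mouse 8 it ended at 109485773. The first named genes beyond the distal ends were BC108384 in the first group of 3, Atp5mpl in lymphoma mouse 8, AK080484 in no-lymphoma mouse 11 and A530016L24Rik in no-lymphoma mouse 14. Those before the proximal ends were Ccdc88c, Kcnk13, AK090096, Kcnk13, AK046740, AK007234 and Serpina3m in lymphoma mice 2 to 8, and Lgmn and AK087910 in no-lymphoma mouse 11 and no-lymphoma mouse 14. The losses of no-lymphoma mouse 11 (9.04 Mb, mean -0.69) and no-lymphoma mouse 14 (11.3 Mb, mean -0.37) were of the same order of length. Beyond the distal end the next segment read -0.22 in lymphoma mouse 4, -0.20 in lymphoma mouse 8 and -0.248 in no-lymphoma mouse 14. These ends therefore depend on the threshold of -0.25. In lymphoma mouse 3, lymphoma mouse 5 and no-lymphoma mouse 11 the next segment read 0.23, 0.04 and -0.10.

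**Figure D3:**
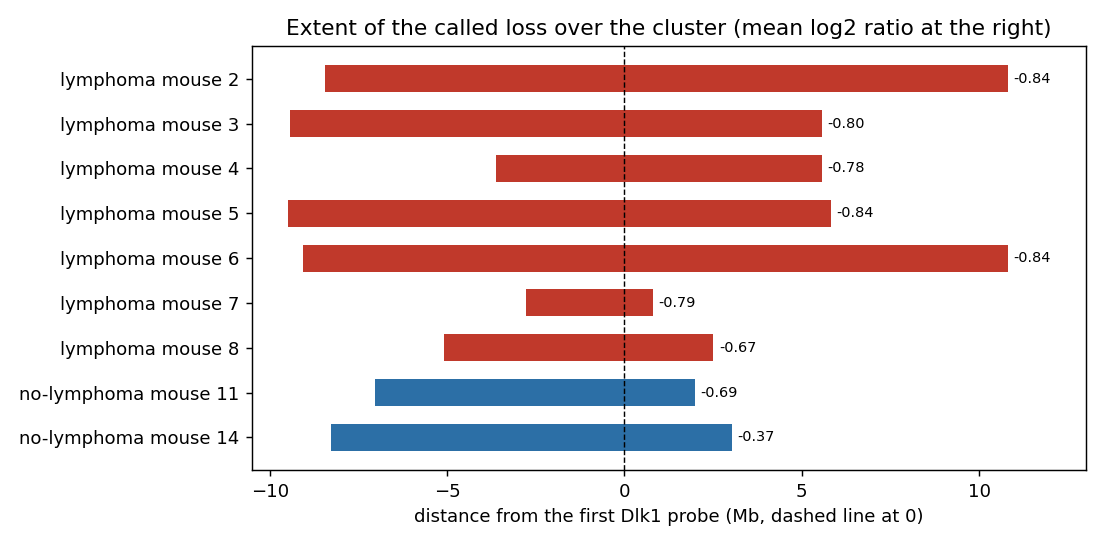
Extent of the called loss in the 9 arrays in which the segment holding most of the members was called lost, in Mb from the first Dlk1 probe (dashed line), red for lymphoma and blue for no lymphoma, with the mean log2 ratio of each at its right. The loss of lymphoma mouse 7 is the shortest, at 3.59 Mb, and the longest reach the last probe of the chromosome.

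Bcl11b, a transcription factor gene needed for T-cell commitment and a tumour suppressor in thymic lymphoma, lay within the common stretch. Its 15 probes averaged -0.61 ± 0.20 (SD, n = 8) in lymphoma and -0.08 ± 0.26 (SD, n = 14) without. In lymphoma the values of Yy1 (-0.78), a zinc finger regulator, Evl (-0.70), an actin regulator, and Degs2 (-0.77), a sphingolipid desaturase, were in the same range. Beyond the cluster the picture was more mixed. Ppp2r5c, a regulatory subunit of protein phosphatase 2A, averaged -0.51 ± 0.56 (SD, n = 8), with a highest value of 0.73 in lymphoma mouse 7.

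Within a scan batch the lymphoma arrays differed from the others by -1.35 in batch 1 (3 lymphomas and 1 other), -0.86 in batch 3 (2 and 2) and -0.97 in batch 6 (2 and 1) for the cluster mean. The other array of batch 1 was no-lymphoma mouse 2, in which the cluster was called gained and averaged 0.80. The lymphomas of batch 1 included lymphoma mouse 1, without the called loss. In batch 5 (1 and 3) the difference was -0.05. That batch holds both mice without lymphoma in which the loss was called. For Dlk1 it was 0.64 there, against -1.56, -0.93 and -1.43 in batches 1, 3 and 6. For Meg3 it was -1.35, -0.91, -0.29 and -0.81 and for Rtl1 -1.12, -0.71, -0.44 and -0.77 in batches 1, 3, 5 and 6. Batches 2 and 4 held no lymphoma. With the batch as a block the cluster difference was -0.81 and that of Rtl1 -0.75.

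Dlk1 stood apart from its flanks in a few mice. In no-lymphoma mouse 7, segmentation set off 10 probes (chr12:106963416-107044565) at -0.87, with the flanking segments at -0.25 and -0.22. This stretch was singled out after its values were seen, so it is described in each array without a test. In no-lymphoma mouse 14 the same probes averaged -1.07, against -0.35 for the 10 probes on each side. In lymphoma mouse 6 they averaged -1.26 against -0.83, and in lymphoma mouse 8 -1.07 against -0.78. No-lymphoma mouse 13 went the other way, at 0.41 against -0.01, as did no-lymphoma mouse 2, at 0.70 against 0.42. In no-lymphoma mouse 11, whose flanks were at -0.73, the 10 probes read -0.66.

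The low values of no-lymphoma mouse 7 and no-lymphoma mouse 14 were uneven along the stretch. At 4 of the 10 probes, starting at 106963416, 106969144, 106981703 (the second Dlk1 probe) and 107044506, the values were -2.28, -1.68, -1.80 and -2.06 in no-lymphoma mouse 14. They read -1.93, -1.23, -1.36 and -1.35 in no-lymphoma mouse 7. The first Dlk1 probe, between them, was at -0.45 and -0.35. In no-lymphoma mouse 13 the same 4 probes read 0.30, 1.35, 0.95 and 1.15, and in lymphoma mouse 8 they read -2.09, -1.56, -0.74 and -1.41. No-lymphoma mouse 11 read -1.39, -0.71, -0.61 and -0.68 at these 4 probes. No-lymphoma mouse 7, no-lymphoma mouse 11, no-lymphoma mouse 14 and lymphoma mouse 8 make up scan batch 5. At the probe at 106963416 they were the 4 lowest of the 22 arrays. At 106969144, 106981703 and 107044506 no-lymphoma mouse 11 ranked 9, 8 and 10 from the lowest. The part of the batch in this pattern was not tested.

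The lowest single values of lymphoma mouse 6 were at other probes. Its first Dlk1 probe read -2.01 and the unnamed probe at 106991564 read -2.93, while its second Dlk1 probe read -0.56. In this mouse a segment of 43 probes (chr12:106472899-107066094) averaged -1.12 and the next one, which holds Meg3 and Rtl1, -0.83. In lymphoma mouse 8 the pair of Dlk1 probes disagreed, at 0.49 and -0.74, so its Dlk1 mean of -0.12 does not represent either.

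**Figure D4:**
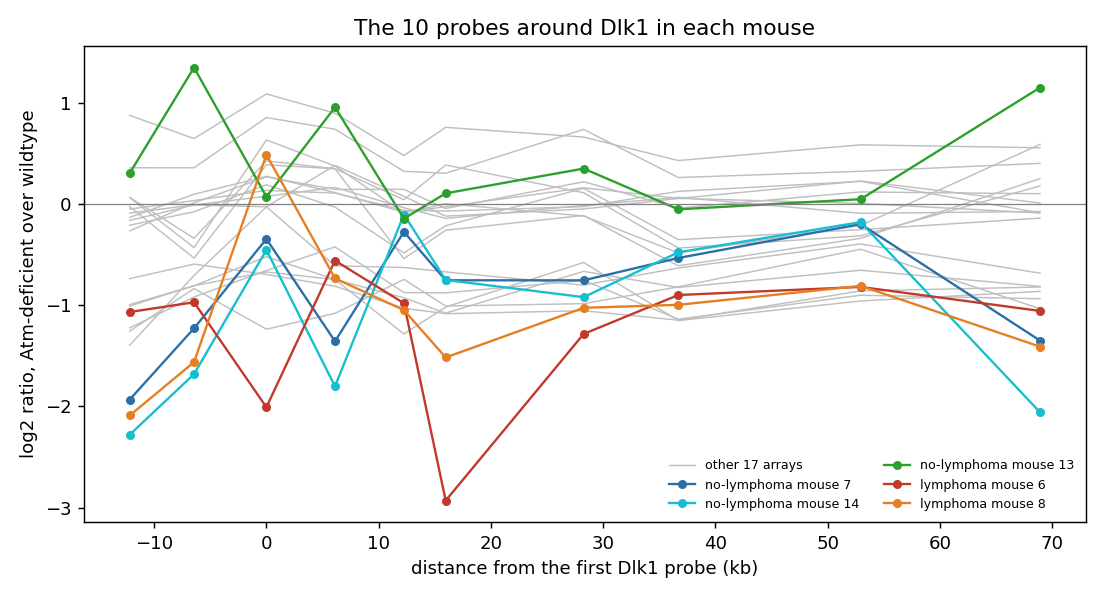
Log2 ratio at 10 consecutive probes around Dlk1 in all 22 arrays, against the distance in kb from the first Dlk1 probe. Coloured lines are the 5 arrays named in the key and grey lines the others. No-lymphoma mouse 7 and no-lymphoma mouse 14 are low at the same 4 probes, where no-lymphoma mouse 13 is high, and lymphoma mouse 6 reaches -2.93.

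The genes whose ratios ran most closely with the cluster mean over the 22 arrays, among 12991 autosomal genes with at least 3 probes and outside the window, were its neighbours on chromosome 12. Pearson's r was 0.97 for AK147993, 0.96 for Wars (tryptophanyl-tRNA synthetase), 0.95 for Evl, 0.95 for AK054227 and 0.94 for Slc25a29 (a mitochondrial amino acid carrier). These are parts of the same lost segments. Outside chromosome 12 the closest were Slco5a1 (an organic anion transporter family member) at 0.89, Adcy2 (an adenylyl cyclase) at 0.88, Ephb1 (an ephrin receptor) at 0.83, Cpne4 at 0.79 and Sorcs1 at 0.78. Their lymphoma means lay between -0.17 and -0.04, and every array was set against wildtype DNA and centred in the same way.

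Since Dlk1 encodes a protein related to the Notch ligands, a list of 35 Notch pathway genes was read beside it. With limma over all 12991 genes, 6.67% were higher and 2.51% lower in lymphoma at an adjusted p under 0.05. These were 867 and 326 genes, or 980 and 97 with arrays centred on the mode. Of 19 list genes with at least 3 probes, 3 were higher and none lower (5 and 0 at an unadjusted p under 0.05), and the median difference was 0.07 against 0.05 over all genes. With so few genes the count is not read as differing from the background. Notch1, the receptor gene most often altered in T-cell leukaemia, rose from 0.06 ± 0.27 (SD, n = 14) to 0.75 ± 0.80 (SD, n = 8), with a limma adjusted p = 0.0462. Mfng, a glycosyltransferase gene on chromosome 15 whose product modifies Notch receptors, was higher by 0.54 (SE 0.12, limma adjusted p = 0.00555). Pofut1, which adds fucose to them, was higher by 0.22 (SE 0.06, limma adjusted p = 0.0171). With the scan batch as a term none of the list passed (limma, 2 higher and 1 lower at an unadjusted p under 0.05), and the differences were 0.41 for Notch1, 0.35 for Mfng and 0.20 for Pofut1. Without scan batch 2 Mfng alone passed. Within batches 1, 3, 5 and 6 the Notch1 difference was 0.93, 0.59, 0.05 and -0.02. The Mfng difference was 0.52, 0.62, -0.04 and 0.18, and that of Pofut1 was 0.03, 0.44, 0.09 and 0.14.

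Few imprinted genes elsewhere in the genome passed the test. Of a list of 44, 30 had at least 3 probes, and 3 were higher and none lower by limma (4 each way at an unadjusted p under 0.05), with a median difference of 0.02. Dio3, a list gene inside the window, has 1 probe and was not among the 30. With so few genes, 3 higher and none lower are not read as differing from the share over all genes, 6.67% higher and 2.51% lower. The 3 lie on chromosome 15, as does Mfng of the Notch list, so these results are not separate by chromosome. Trappc9, a trafficking factor, was higher by 0.45 (SE 0.06, limma adjusted p = 4.43e-05). Slc38a4, an amino acid transporter, was higher by 0.40 (SE 0.07, limma adjusted p = 0.000235), and Kcnk9, a potassium channel, by 0.38 (SE 0.07, limma adjusted p = 0.00108). With the scan batch as a term, Trappc9 (0.41) and Slc38a4 (0.40) still passed and Kcnk9 did not (difference 0.34, limma adjusted p = 0.0881). In batches 1, 3 and 6 their differences ranged from 0.40 to 0.60, and in batch 5 they were -0.03 for Trappc9, -0.03 for Slc38a4 and -0.30 for Kcnk9.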

How the data were processed

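Each of the 22 deposited scanner files holds 1 array with spot brightness as intensity in both channels, background-subtracted and dye-normalised by Feature Extraction 9.1.3.1 (protocol CGH-v4_91), per the file headers. The log ratio in these files is log10 of red over green, per the file headers, and the deposited value table of the series equals it (largest difference 0, medians -0.0209 to 0.0173), so its scale, direction and lack of centring are known. Log2 ratios were computed here from the deposited processed intensity, with flagged spots (3 to 111 per array) left out and each array centred on its autosomal median. Of 25811 names, 12191 matched a RefSeq symbol (GRCm38.p6), 3605 a synonym and 1 an accession, and the array names of 10014 were kept. Median signals were 146 to 226 in green and 146 to 397 in red, over backgrounds of 41 to 89 and 50 to 82, and 0.089% to 1.54% of spots were dim. The number of arrays limits the precision.

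Arrays were segmented by optimal partitioning (each break cost 3 noise variances times the logarithm of the number of probes, and a segment held at least 5), in Python 3.11.15 with numpy 2.4.6. For the gene lists, lmFit and eBayes of limma 3.58.1 (R 4.3.3) compared gene means, and within-array differences with an exact permutation test. Both kinds of script were tested on simulated data. Genes named are the members, the other genes of the window, fixed landmarks of chromosome 12, the first gene beyond each loss, list genes past the limma threshold, and the 5 closest to the cluster mean by Pearson's r outside the window and outside chromosome 12. The members and lists were chosen with earlier results of these data known. Alternatives covered background correction, centring, spot filters, calling thresholds, batches and single arrays.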

Additional observations from a re-analysis of the deposited data

Results flagged for a closer look

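In the lymphoma group, lymphoma mouse 1 lay apart from the other 7 arrays, above a gap limit of 0.526 of the group's range, in 3 of the 9 quantities checked. Its value was -0.0642 for Rtl1, -0.0921 for Meg3 and -0.203 for the other probes of the window. Chance passes that limit in about 1 of 20 groups, and the 3 quantities come from the same stretch of the same arrays. The next highest lymphoma values were -0.44 for Rtl1, -0.61 for Meg3 and -0.85 for the window.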

How the results depend on the processing

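The cluster, Dlk1, Rtl1, Meg3 and neighbourhood differences stayed negative under all 14 alternatives and all 22 single-array omissions. Background correction with normexp (offset 50, on median signals) gave smaller values, -0.38 for the cluster, -0.33 for Rtl1, -0.32 for Meg3 and -0.48 for the neighbourhood. It also gave 0.0095 for Meg3 minus Rtl1, a sign change, with 5 lymphoma losses, 0 losses without lymphoma and 1 Notch gene higher. A loss threshold of -0.4 left 1 loss without lymphoma, while centring on the mode, or turning the sign of scan batch 2 (chosen after seeing the data), gave 3. With the scan batch as a block, Rtl1 was -0.75 and Meg3 minus Dlk1 changed sign to -0.0346. Turning the sign of scan batch 2 gave -0.0697 for Rtl1 minus Dlk1, -0.14 for Meg3 minus Dlk1 and 1 Notch gene. Turning the sign of the 3 arrays of negative correlation gave -0.11, -0.16 and 1, with 4 imprinted genes lower (Calcr, Ndn, Peg3 and Usp29). Meg3 minus Dlk1 was -0.0298 without scan batch 2, with 1 Notch gene, -0.0052 without the noisiest array of each group, and -0.0402 and -0.0459 without the arrays of negative correlation and of a low Atm probe, both chosen after seeing the data. Omitting single arrays gave -0.0132 to 0.17 for Meg3 minus Dlk1 and -0.21 to -0.15 for Meg3 minus Rtl1. With the batch term 0 Notch genes passed. Over all genes, the 867 higher and 326 lower became 374 and 52 with the batch term, 600 and 60 with normexp, 980 and 97 centred on the mode, 668 and 186 without the noisiest arrays, 580 and 130 without scan batch 2, and 1130 and 641 with the 3 arrays turned. The cause of these changes was not tested. No paired analysis was possible because the labels give no number that links arrays across groups. Calls of short segments depend on the noise of each array, which limits what can be said of Dlk1 alone.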

Other observations

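Outside the cluster, Akt1, a kinase gene farther along chromosome 12, averaged -0.27 ± 0.79 (SD, n = 8) in lymphoma and 0.09 ± 0.39 (SD, n = 14) without. It read 1.26 in lymphoma mouse 7, in which the cluster was lost, and 1.34 in no-lymphoma mouse 2, in which the cluster was gained. Dync1h1, the dynein heavy chain gene between the cluster and Akt1, read 0.73 in lymphoma mouse 7, against a lymphoma median of -0.65.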
